A study of Mus musculus with 12 samples.

Results

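The nuclear-encoded subunits of the mitochondrial respiratory chain were followed in organoids of bile duct epithelium from the mouse liver. The members are the protein-coding genes whose symbols mark them as structural subunits of complexes I to V (the Ndufa, Ndufb, Ndufc, Ndufs, Ndufv, Uqcr, Cox4i, Cox5, Cox6, Cox7, Cox8 and Atp5 names, with Sdha to Sdhd and Cyc1), without the Ndufaf assembly factors. They were picked by name and not by measured values, though with earlier results of these data known. This gave 87 of the 53700 gene rows: 36 for complex I, 4 for complex II, 9 for complex III, 20 for complex IV and 18 for complex V. Ndufa4 and Ndufa4l2 are counted with complex IV, where the Ndufa4 protein is now placed. A row named Ndufb1-ps, with 6865 counts in all, is annotated as non-coding and is no member.

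The libraries came from 12 untreated cultures of intrahepatic cholangiocyte organoids (hollow balls of bile duct epithelium), grown in gel domes and collected at passage 5. Each of 6 mice gave 1 culture from the liver hilum and 1 from the periphery. The groups were Ndr hilum and Ndr periphery, both from mice 1219, 1220 and 1224 (Jag1 Ndr/Ndr, homozygous for an allele of the Notch ligand gene Jag1), and WT hilum and WT periphery, both from wild-type mice 1221, 1223 and 1225. The labels date the derivation of the cultures to June: the Ndr cultures to the 17th (mouse 1219), 18th (mouse 1220) and 21st (mouse 1224), and the WT cultures to the 15th (mice 1221 and 1223) and 21st (mouse 1225). Genotype and derivation date therefore overlap on 1 day only, and a library is 1 culture of 1 mouse. Counts per gene cannot tell the Jag1 alleles apart, and the labels do not state the age of the mice. The p-values measure the spread between these cultures.

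The respiratory chain sits in the inner mitochondrial membrane. Complexes I and II pass electrons from NADH and succinate to ubiquinone, complex III passes them on to cytochrome c, and complex IV to oxygen. The protons moved along the way drive complex V, the ATP synthase. Most subunits are encoded in the nucleus, and the mitochondrial genome encodes a core of the subunits of complexes I, III, IV and V, so both genomes have to supply parts of the same machines. The factors NRF1, GABP (an ETS protein) and YY1 are textbook activators of the nuclear subunit genes, and RBPJ is the DNA-binding factor of the Notch pathway.

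The promoters of 4 members are shown as examples with several, 1 or none of the motifs of these activators, each 300 bases long and covering 250 bases before to 50 bases after the start site. They come from RefSeq on GRCm38.p6, and capitals mark the motifs found on either strand: CGCATGCGC for NRF1 and CCGGAAG, or its reverse complement CTTCCGG, for the ETS/GABP site. Cox6a1 (chr5:115348909-115349208, minus strand) and Uqcr11 (chr10:80406772-80407071, minus strand) hold both motifs, Sdhd (chr9:50603800-50604099, minus strand) holds the ETS/GABP motif alone, and Sdha (chr13:74350191-74350490, minus strand) holds none of the motifs searched.
Cox6a1: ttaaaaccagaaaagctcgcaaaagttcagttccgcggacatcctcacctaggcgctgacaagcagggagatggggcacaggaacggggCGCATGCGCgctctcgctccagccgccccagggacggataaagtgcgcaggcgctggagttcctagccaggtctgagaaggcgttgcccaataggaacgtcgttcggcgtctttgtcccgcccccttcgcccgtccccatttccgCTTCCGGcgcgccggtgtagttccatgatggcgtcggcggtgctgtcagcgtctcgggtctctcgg
Uqcr11: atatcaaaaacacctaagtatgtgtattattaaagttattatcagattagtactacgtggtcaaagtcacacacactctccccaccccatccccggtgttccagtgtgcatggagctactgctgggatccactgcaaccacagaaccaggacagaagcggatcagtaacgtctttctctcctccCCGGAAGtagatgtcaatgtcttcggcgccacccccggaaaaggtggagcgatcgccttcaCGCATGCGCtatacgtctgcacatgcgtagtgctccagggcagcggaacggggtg
Sdhd: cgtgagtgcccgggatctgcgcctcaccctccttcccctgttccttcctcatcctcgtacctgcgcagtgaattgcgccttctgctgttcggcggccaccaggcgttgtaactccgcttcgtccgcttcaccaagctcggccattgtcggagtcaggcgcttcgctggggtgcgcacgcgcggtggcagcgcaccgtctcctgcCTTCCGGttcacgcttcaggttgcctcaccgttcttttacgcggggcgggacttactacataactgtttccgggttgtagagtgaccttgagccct
Sdha: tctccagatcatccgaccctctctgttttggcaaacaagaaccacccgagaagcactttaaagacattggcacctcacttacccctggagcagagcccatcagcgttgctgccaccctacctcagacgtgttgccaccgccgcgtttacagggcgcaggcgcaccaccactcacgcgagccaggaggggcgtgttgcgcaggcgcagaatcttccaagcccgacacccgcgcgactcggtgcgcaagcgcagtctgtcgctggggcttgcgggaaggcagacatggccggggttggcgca

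Promoters of 67 members matched the RefSeq table by symbol or synonym. Cyc1, Cox4i1, Ndufs1 and Atp5a1 were among the tested members without a match. A gene was counted for a motif if the promoter of any of its start sites held it. The NRF1 motif was found for 8 of these 67 members (11.9%), against 1.95% of the 27025 genes in the table. The ETS/GABP motif stood in 16 (23.9%), against 9.93% of the table, and the YY1 motif AAGATGGCG in 7 (10.4%), against 1.64%. At least 1 of these 3 motifs was found in 26 of the 67 (38.8%), against 12.7% of the table. TGGGAA, the core of the RBPJ site, stood in 14 (20.9%), against 28.3% of the table. No pair of these motifs contains the other. The other 41 held none of the 3 activator motifs, among them Cox5a, Cox7a2, Ndufb8, Uqcrfs1, Atp5c1 and Ndufa4. Members with and without such a motif had like values in the libraries described below where the chain was high: on the log2(CPM + 1) scale, the median deviation from the gene's own mean was 0.64 in Ndr hilum 1219 and 0.66 in Ndr periphery 1220 for the 26, and 0.64 and 0.58 for the 41. These are matches of letters, with no measure of binding, and a window without a match says nothing about a factor.

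Of the 87 members, 80 had enough counts to be tested. The 7 others are tissue-restricted isoforms and a duplicate identifier: Cox4i2, known from lung, had 2 counts over all 12 libraries, the muscle form Cox6a2 had 1, and Ndufa4l2, a hypoxia-induced relative of Ndufa4, had 13. Cox7b2, Cox8b, Cox8c and a second identifier of Atp5o had no count, which allows up to 3 counts, or 0.0254 CPM, over the 12 libraries together. Levels are given as CPM, counts scaled to a common library size. The general forms of the isoform families were the abundant ones: Cox4i1 averaged 324 CPM over the 12 libraries, Cox6a1 141, Cox6b1 147, Cox7a2 94.5, Cox7b 96.1, Cox8a 160 and Ndufa4 161 CPM. Cox7a2l, a relative of Cox7a2 that takes part in the assembly of respiratory supercomplexes, averaged 211 CPM, above Cox7a2 itself. The muscle isoform Cox7a1 averaged 1.47 CPM and the testis isoform Cox6b2 averaged 8.86 CPM. Germ cell markers summed to at most 0.826 CPM in any library.

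Per kilobase of transcript, the subunits of one complex were far from equal in level. Each subunit's level was averaged over the 12 libraries. The median of the tested subunits was 56.1 CPM per kb for complex I, 87.8 for complex II and 107 for complex III. It was 149 for complex IV and 108 for complex V. The highest of each complex were Ndufa6, an accessory subunit of the matrix arm, at 217 CPM per kb, Sdhd, a membrane anchor of succinate dehydrogenase, at 134, Uqcrh, the hinge protein of complex III, at 342, Cox4i1 at 423, and Atp5b, the catalytic beta subunit of ATP synthase, at 590 CPM per kb. At the low end stood Atp5g1 at 3.09 CPM per kb, Cox7a1 at 3.73 and Ndufb2 at 4.83; the annotated transcripts of Atp5g1 and Ndufb2 are the longest of the members, at 4715 and 4371 bases. The c-ring of ATP synthase is encoded by a family of genes for the same mature protein, and among their rows Atp5g3 was the highest: it averaged 243 CPM, against 28.7 CPM for Atp5g2 and 14.6 CPM for Atp5g1.

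Some of these levels are uncertain, because the genome carries pseudogene copies that the deposited table lists as rows of their own. Of the 87 members, 11 had a copy at least 95% identical over at least 50% of the transcript, and in 4 the copies held more counts than the gene. Atp5l, subunit g of ATP synthase, had 861 counts against 11569 on its 8 copies. Atp5g2 had 3327 counts against 18323 on its copies, Atp5h, subunit d, had 2576 against 12165, and Uqcrb, a small subunit of complex III, had 3494 against 5046. Copies also held 49.4% of the joint counts of Cox7c and 45.1% of those of Ndufs3. The share on copies lay between 78.9% and 87.6% over the libraries for Atp5h and between 81.5% and 88.4% for Atp5g2. It varied more for Cox7c, between 27.2% and 59.0%, and for Ndufs6, between 16.4% and 33.8%. For Atp5l the gene itself held between 3.70% and 9.40% of the joint counts. Some pseudogene rows named after members missed these limits of identity and length but held many counts. Ndufb4c had 1928 counts against 731 for Ndufb4, and Ndufab1-ps had 2408 against 2179 for Ndufab1. Cox6c2 had 2787 against 9083 for Cox6c. How reads that match several places were assigned is not given in the sources used here, and reads of the gene and of its copies cannot be told apart here.

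The members moved up and down together from library to library. Their summed level was 12183, 6578 and 7108 CPM in Ndr hilum (mice 1219, 1220 and 1224), against 7291, 10111 and 9365 CPM in WT hilum (mice 1221, 1223 and 1225). It was 7905.5, 12736 and 8905 CPM in Ndr periphery, against 8069, 7350 and 8428 CPM in WT periphery, in the same order of mice. The highest sums thus came from Ndr hilum 1219 and Ndr periphery 1220, and the lowest from Ndr hilum 1220. As a mean over 3 cultures the sum was 8623 ± 3095 CPM (SD) in Ndr hilum and 8922 ± 1461 CPM in WT hilum, and 9849 ± 2550 CPM in Ndr periphery and 7949 ± 549 CPM in WT periphery. The SD of the Ndr groups exceeded the difference between genotypes in either region.

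**Figure D1:**
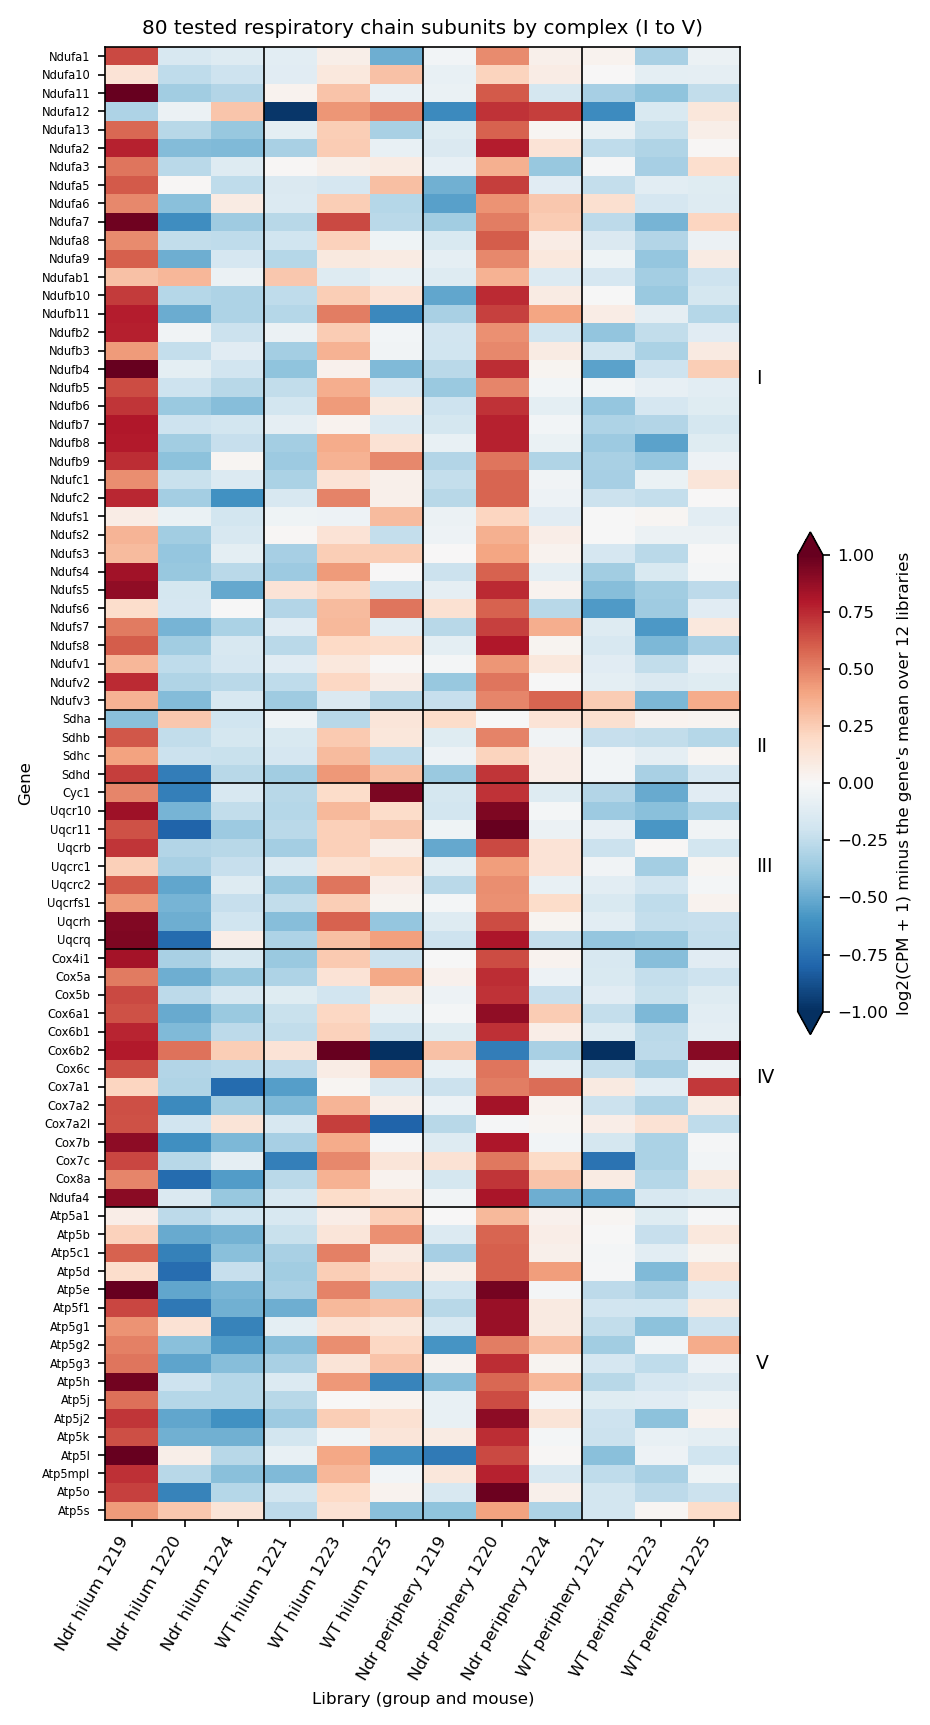
Expression of the 80 tested subunits (rows, by complex) in the 12 libraries (columns), as log2(CPM + 1) minus the gene's own mean over the libraries, red above and blue below that mean. The columns of Ndr hilum 1219 and Ndr periphery 1220 are red in nearly every row, and WT hilum 1223 is red to a lesser degree, with Sdha, Ndufa12 and Cox6b2 among the rows that break the pattern.

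Gene by gene the same libraries stood out. On the log2(CPM + 1) scale, the median member lay 0.64 above its own mean in Ndr hilum 1219 and 0.60 above it in Ndr periphery 1220, with 78 and 77 of the 80 members above their means. It lay 0.25 above in WT hilum 1223, with 73 of 80 above, and between 0.33 below and 0.06 above in the other 9 libraries. Ndr periphery 1220 was the highest library for 39 members and Ndr hilum 1219 for 33. Those libraries were the highest pair for 63 of the 80 members (78.8%), as they were for 9.55% of all 15014 tested genes. The lowest library was Ndr hilum 1220 for 31 members, Ndr hilum 1224 for 11 and WT periphery 1223 for 10. Both of the highest libraries were singled out after their values were seen, and they came from different mice, regions and dates. The size of the variation was ordinary: the median SD of log2(CPM + 1) over the libraries was 0.391 for members and 0.388 for all tested genes.

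Every complex followed this course. Complex I summed to 3078, 1655 and 1785 CPM in Ndr hilum (mice 1219, 1220 and 1224), against 1819, 2434 and 2049 CPM in WT hilum (mice 1221, 1223 and 1225), and to 1803, 2987 and 2164 CPM in Ndr periphery, against 1918, 1752 and 2002 CPM in WT periphery. Complex IV summed to 2471, 1142 and 1260 CPM in Ndr hilum, against 1240, 1871 and 1411 CPM in WT hilum, and to 1416, 2359 and 1518 CPM in Ndr periphery, against 1349, 1260 and 1416 CPM in WT periphery. For both complexes Ndr hilum 1219 was the highest library and Ndr periphery 1220 the next. Complex V was highest in Ndr periphery 1220 at 4944 CPM, with 4213 CPM in Ndr hilum 1219, and complex III reached 1624 and 1637 CPM in these libraries. Complex II varied least, between 566 and 823 CPM.

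**Figure D2:**
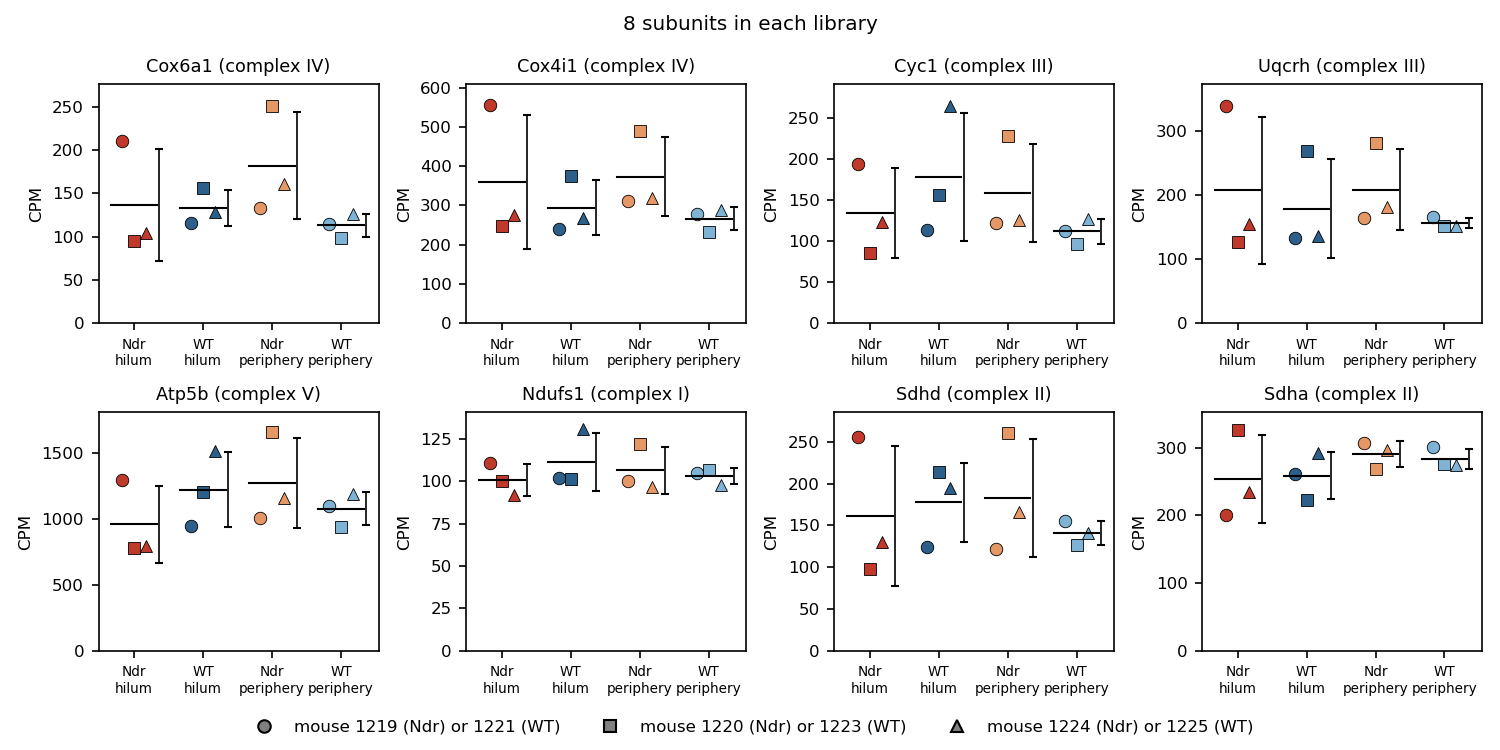
CPM of 8 subunits in each library, with the group mean as a horizontal line and the SD of 3 cultures as the error bar beside it; symbols give the mouse. Cox6a1, Cox4i1, Uqcrh and Sdhd peak in Ndr hilum 1219 and Ndr periphery 1220, Cyc1 peaks in WT hilum 1225, Ndufs1 is nearly level, and Sdha is lowest in Ndr hilum 1219.

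Single subunits kept this course to different degrees. Cox4i1, the general form of subunit IV of cytochrome c oxidase, had 556, 248 and 276 CPM in Ndr hilum, against 241, 374 and 269 CPM in WT hilum, in the mouse order above. It had 311, 489 and 319 CPM in Ndr periphery, against 279, 232 and 289 CPM in WT periphery. Its groups overlapped in the hilum and did not in the periphery, where every Ndr culture was above every WT culture. Uqcrh had 338, 127 and 155 CPM in Ndr hilum, against 132, 267 and 136 CPM in WT hilum, and 163, 280 and 181 CPM in Ndr periphery, against 166, 151 and 152 CPM in WT periphery. Atp5b had 1293, 779 and 797 CPM in Ndr hilum, against 946, 1202 and 1513 CPM in WT hilum, and 1003, 1654 and 1155 CPM in Ndr periphery, against 1097, 941 and 1190 CPM in WT periphery. Uqcrh and Atp5b overlapped between genotypes in both regions, and for Atp5b WT hilum 1225 was above Ndr hilum 1219.

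The exceptions were few. Sdha, the flavoprotein that oxidises succinate and also serves the citric acid cycle, had 201, 326 and 235 CPM in Ndr hilum, against 262, 222 and 292 CPM in WT hilum. It had 307, 269 and 296 CPM in Ndr periphery, against 300.5, 276 and 274 CPM in WT periphery. So its lowest library was the one where the chain as a whole was near its highest, and its highest was Ndr hilum 1220, the lowest for 31 members. Sdhd, the anchor of the same complex, ran the other way, with 256, 97.3 and 130.2 CPM in Ndr hilum, against 124, 214 and 195 CPM in WT hilum. Sdhd had 122, 260.0 and 166 CPM in Ndr periphery, against 155, 126 and 140.5 CPM in WT periphery. The genes of complex II were therefore not in a fixed ratio.

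Cyc1, cytochrome c1 of complex III, was highest in WT hilum 1225: it had 194, 85.6 and 123 CPM in Ndr hilum, against 113, 157 and 266 CPM in WT hilum, and 122, 228 and 126 CPM in Ndr periphery, against 113, 97.0 and 127 CPM in WT periphery. The steadiest members were Ndufs1, the largest iron-sulphur subunit of complex I, with an SD of log2(CPM + 1) of 0.143 and a highest level 1.42 times the lowest, then Ndufa10, an accessory subunit of complex I (0.168), and Atp5a1, the alpha subunit of ATP synthase (0.171). Ndufs1 stayed between 92.0 and 131 CPM in all 12 libraries. The most variable among members averaging at least 5 CPM were Cox6b2 (0.869, with a highest level 9.12 times the lowest), Ndufa12, an accessory subunit of complex I (0.556), and Atp5l (0.546).

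The steadiest members had long annotated transcripts, but not every member with a long one was steady. The annotated transcript was 2661 bases long for Ndufs1, 2900 for Sdha, 2471 for Atp5a1 and 2020 for Ndufa10. The longest of all went the other way: Atp5g1 lay 0.45 above its mean in Ndr hilum 1219 and 0.86 above in Ndr periphery 1220, on the log2(CPM + 1) scale, and Ndufb2 0.78 and 0.45 above. The 46 members with transcripts under 1000 bases had a median of 0.71 above their means in Ndr hilum 1219 and 0.69 in Ndr periphery 1220, on the log2(CPM + 1) scale. For the 26 members of 1000 to under 2000 bases the medians were 0.58 and 0.56, and for the 8 of 2000 bases or more 0.21 and 0.27. Across the 80 members, Pearson's r between log10 length and this deviation was -0.47 in Ndr hilum 1219 and -0.32 in Ndr periphery 1220, and between log10 length and the SD over the 12 libraries it was -0.49. Each of these is a description across genes that share their libraries. The length is that of the longest principal transcript, and which transcript the cultures expressed was not examined, also for Atp5g1 and Ndufb2.

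**Figure D3:**
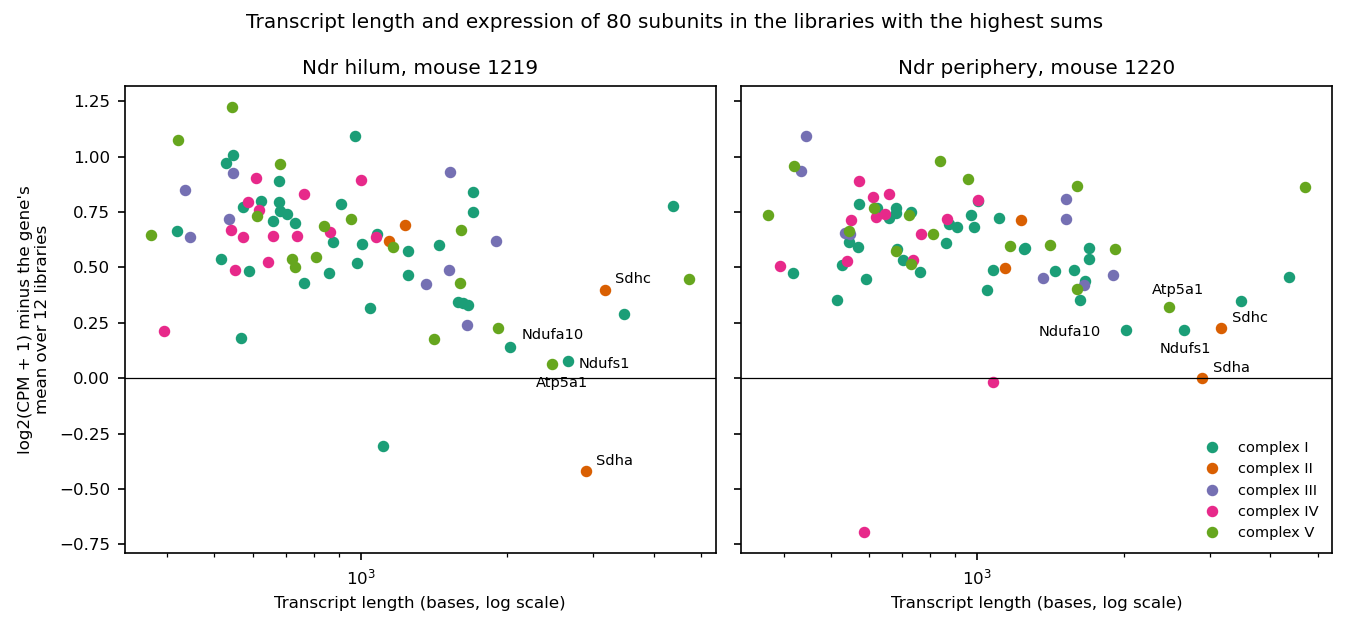
Length of the annotated transcript (bases, log scale) against the deviation of each of 80 subunits from its own mean, on the log2(CPM + 1) scale, in Ndr hilum 1219 and Ndr periphery 1220; colours give the complex. Subunits with short transcripts lie mostly between 0.4 and 1.2 above their means. Ndufs1, Atp5a1 and Ndufa10 lie between 0.06 and 0.14 above in Ndr hilum 1219 and between 0.22 and 0.32 above in Ndr periphery 1220. Sdha lies at -0.42 and -0.00 in these libraries. The longest, Atp5g1 and Ndufb2, lie between 0.45 and 0.86 above.

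Other genes with short transcripts followed the same libraries. The 561 other coding genes tested with transcripts under 1000 bases lay a median of 0.54 above their means in Ndr hilum 1219 and 0.41 in Ndr periphery 1220, against 0.24 in WT hilum 1223 and -0.33 in Ndr hilum 1220. The 6106 coding genes over 3000 bases lay at -0.31 in Ndr hilum 1219 and -0.24 in Ndr periphery 1220. The part of transcript length in the members' levels was not tested. The depth of these libraries, 10462220 and 10440938 counts, was inside the range of 6708822 to 16030880.

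**Figure D4:**
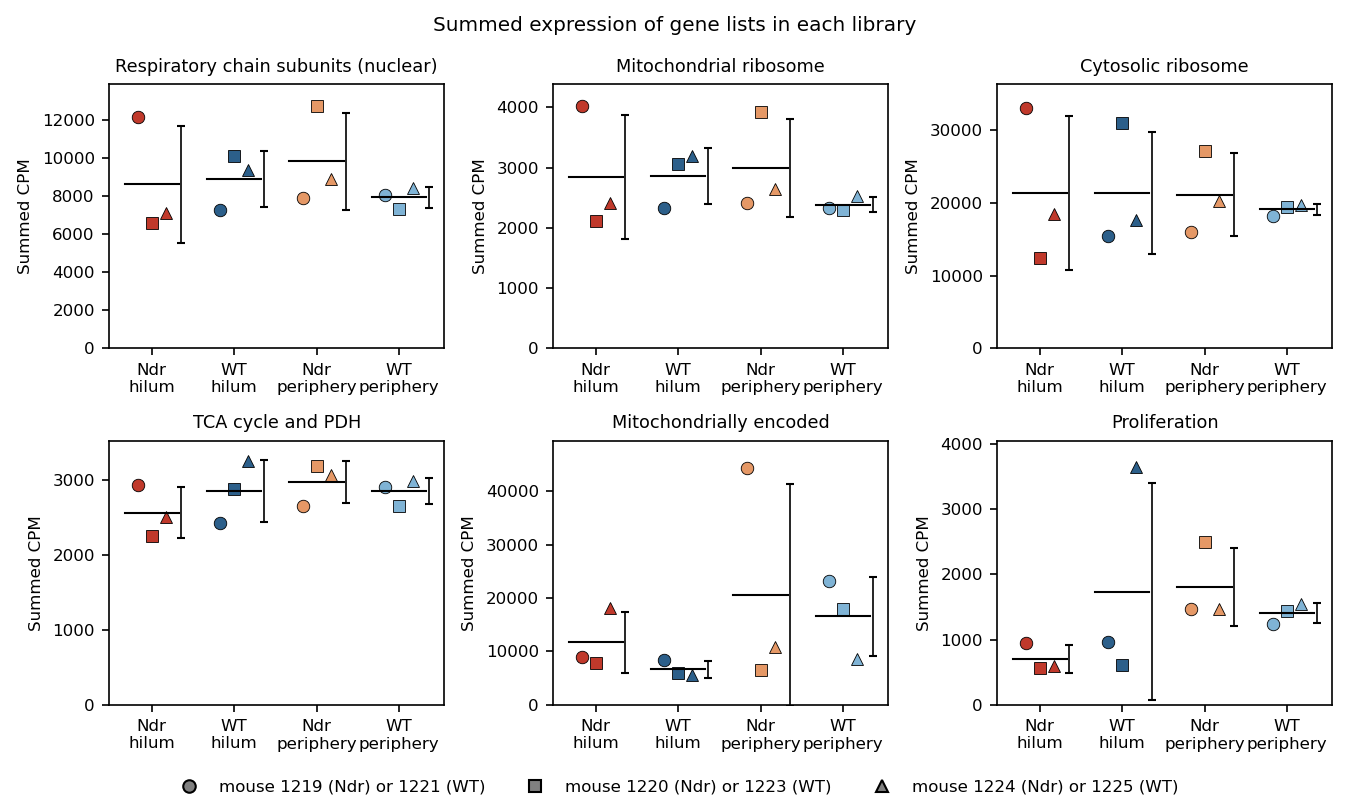
Summed CPM of 6 gene lists in each library, with the group mean as a line and the SD of 3 cultures as the error bar; symbols give the mouse. The respiratory chain, the mitochondrial ribosome and the cytosolic ribosome share the high values of Ndr hilum 1219 and Ndr periphery 1220, and the mitochondrially encoded genes do not.

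The wider mitochondrial programme was split. Proteins of the mitochondrial ribosome, which translates the mitochondrial genome, kept nearly the same ratio to the members in all 12 libraries, with a summed level between 0.288 and 0.340 times theirs. Cytosolic ribosomal proteins, which translate the nuclear-encoded messages, were also at their highest in Ndr hilum 1219 (33115 CPM), with 30939 CPM in WT hilum 1223 and 27199 CPM in Ndr periphery 1220. The transcripts of the mitochondrial genome took another course. They summed to 8935, 7820 and 18202 CPM in Ndr hilum, against 8429, 5826 and 5486 CPM in WT hilum, and to 44470, 6470 and 10750 CPM in Ndr periphery, against 23176, 17916 and 8566 CPM in WT periphery. Their ratio to the nuclear members ran from 0.508 in Ndr periphery 1220 to 5.63 in Ndr periphery 1219. The nuclear and mitochondrial RNAs of the chain were thus in no fixed proportion. Citrate cycle and pyruvate dehydrogenase genes summed to between 2257 and 3260 CPM, a narrower range than that of the members.

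Nrf1, Gabpa and Yy1, the activators of the nuclear subunit genes, were not at their highest in Ndr hilum 1219 or Ndr periphery 1220. Nrf1 had 27.2, 25.1 and 28.1 CPM in Ndr hilum, against 34.7, 28.0 and 38.3 CPM in WT hilum, and 30.5, 36.8 and 32.0 CPM in Ndr periphery, against 31.1, 31.1 and 31.9 CPM in WT periphery. Gabpa, the DNA-binding subunit of GABP, lay between 55.9 CPM in Ndr hilum 1219 and 96.7 CPM in Ndr hilum 1220, the reverse of the members' order in these libraries. Yy1 was likewise lower in Ndr hilum 1219, at 145 CPM, than in Ndr hilum 1220, at 224 CPM, its highest library. Tfam packages the mitochondrial genome and helps to start its transcription. Tfam had 79.4, 47.8 and 48.0 CPM in Ndr hilum, against 53.8, 58.7 and 61.7 CPM in WT hilum. It had 52.5, 83.6 and 59.1 CPM in Ndr periphery, against 55.5, 50.6 and 59.1 CPM in WT periphery. Its highest libraries were those of the members. Ppargc1a, the coactivator of mitochondrial biogenesis, ranged from 0.283 CPM in Ndr periphery 1220 to 20.1 CPM in Ndr hilum 1220.

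The cultures were of bile duct type by their markers. Of 15 cholangiocyte markers 14 were tested, and their summed level was 11406 to 21454 CPM, led by Spp1 and Krt18. Endothelial markers (0 of 6 tested) summed to at most 0.530 CPM and fibroblast and stellate markers (1 of 9 tested) to at most 1.79 CPM. Striated muscle markers (2 of 8 tested) summed to between 1.96 CPM in Ndr hilum 1220 and 81.6 CPM in WT periphery 1225. Tnnt2 led that sum, with a mean of 28.2 CPM over the 12 libraries. Immune markers (2 of 6 tested) summed to 12.7 to 40.1 CPM in Ndr hilum, against 12.5 to 18.6 CPM in WT hilum, and to 9.90 to 30.3 CPM in Ndr periphery, against 18.1 to 24.2 CPM in WT periphery. Hepatocyte markers (5 of 10 tested) summed to 168 to 292 CPM in Ndr hilum, against 159 to 253 CPM in WT hilum, and to 210 to 328 CPM in Ndr periphery, against 185 to 262 CPM in WT periphery. Hnf4a, a transcription factor, led the hepatocyte sum. Ttr, a secreted liver protein, had 24.95, 51.3 and 52.0 CPM in Ndr hilum, against 5.00, 7.72 and 2.01 CPM in WT hilum, with no overlap. It had 21.4, 8.30 and 4.30 CPM in Ndr periphery, against 2.60, 3.59 and 0.530 CPM in WT periphery, again with no overlap. Of all genes, 4.57% were wholly higher in Ndr in the hilum and 5.41% in the periphery. Over the 5 tested hepatocyte markers, Ndr was above WT for 2 in the hilum and 3 in the periphery. Their median log2 differences were -0.02 and 0.19. Neither the immune nor the hepatocyte list was at its highest where the members were. Proliferation genes summed to 942 CPM in Ndr hilum 1219, 2505 CPM in Ndr periphery 1220 and 3649 CPM in WT hilum 1225, the highest of all. In these bulk samples, fewer cells of a type and less RNA per cell cannot be told apart.

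In hilar organoids the genotypes did not separate for any subunit. Of the 80 members, 0 passed an adjusted p of 0.05 in edgeR's quasi-likelihood test, as did 0% of the 15014 genes, and 0 had an unadjusted p under 0.05, against 6.54% of all genes. Ndr was above WT for 50 members (49.5% of all genes), and the median log2 difference was 0.04, against -0.00 for all genes. In 0 members did the 3 cultures of one genotype all lie above or below those of the other; 4.57% of all genes were wholly higher in Ndr and 4.18% wholly lower. The median was 0.08 for complex I, 0.00 for complex II, -0.05 for complex III, 0.11 for complex IV and -0.01 for complex V.

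The smallest p-values in the hilum belonged to members counted with complexes V and I. Atp5s is counted with complex V by its name only, and RefSeq lists it as Dmac2l. It had 20.4, 18.2 and 16.3 CPM in Ndr hilum, against 12.3, 16.5 and 10.9 CPM in WT hilum. Its groups thus overlapped by a single pair of cultures (log2 difference 0.47, SE 0.27, edgeR adjusted p = 0.779). Ndufb4, an accessory subunit of complex I, had 13.5, 5.36 and 4.98 CPM in Ndr hilum, against 4.15, 6.02 and 4.02 CPM in WT hilum (log2 difference 0.76, SE 0.47). The pseudogene row Ndufb4c held more counts than Ndufb4 itself. Ndufa1, a small membrane subunit of complex I, differed by 0.35 on the log2 scale, Atp5l by 0.60 and Atp5b by -0.35. The hilar values rest on mouse 1219: without Ndr hilum 1219 the members' median was -0.33 and 6 members were above 0, and Atp5l turned to -0.06.

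In peripheral organoids nearly all subunits were higher in Ndr, by an amount that no single gene test separated from the spread. Of the 80 members, 0 passed the adjusted threshold in edgeR (0% of all genes) and 0 an unadjusted p of 0.05 (2.92% of all genes). Ndr was above WT for 77 members, against 54.5% of all genes, and the median log2 difference was 0.37, against 0.03 for all genes. For 18 members all Ndr cultures were above all WT cultures, as for 5.41% of all genes, and for 0 members below, as for 3.61%. The members share their libraries, so their number adds no independent cultures. By complex the median was 0.31 for I, 0.25 for II, 0.42 for III, 0.44 for IV and 0.43 for V.

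Cox6a1, the general form of subunit VIa of cytochrome c oxidase, had 133, 252 and 161 CPM in Ndr periphery, against 114, 98.7 and 126 CPM in WT periphery. The groups did not overlap, though the lowest Ndr and highest WT cultures were close (log2 difference 0.69, SE 0.33, edgeR adjusted p = 1). Ndufs8, an iron-sulphur subunit of complex I, had 46.3, 87.2 and 50.8 CPM in Ndr periphery, against 44.3, 36.2 and 39.3 CPM in WT periphery (0.62, SE 0.31). Uqcr10, a small subunit of complex III, had 47.8, 105 and 53.7 CPM in Ndr periphery, against 42.2, 40.7 and 44.0 CPM in WT periphery (0.71, SE 0.38). In each of them 1 culture, from mouse 1220, was far above the others.

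Among the rest of the subunits named by rank in the periphery, Cox7c, a small subunit of complex IV, differed by 0.71 on the log2 scale (0.55 with its copy counted in, when the genotypes overlapped), Ndufs5 by 0.68, Atp5g1 by 0.66 and Ndufs6, a zinc-binding accessory subunit of complex I, by 0.56. Atp5g1 did not overlap between genotypes, with its lowest Ndr culture at 12.4 CPM, from mouse 1219, close above the WT cultures. Without Ndr periphery 1220 the members' median was 0.09, with 56 of 80 above 0, and without Ndr periphery 1219 it was 0.54. On the day the genotypes share, the 21st, Ndr mouse 1224 minus WT mouse 1225 gave a median of 0.08 in the periphery (54 of 80 higher) and -0.32 in the hilum (15 of 80 higher), as 1 culture against 1. With derivation date as a term the median was 0.07 in the periphery and -0.30 in the hilum, so the peripheral difference was smaller and the hilar median lay below 0. Only the 21st holds both genotypes, so the genotype difference averaged over the regions in this fit rests on mouse 1224 against mouse 1225. These medians are therefore not independent of the values of that day.

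Other mitochondrial lists had like values in the periphery, where 0 genes of any list passed the adjusted threshold in edgeR. The median log2 difference was 0.34 for the mitochondrial ribosome, with 74 of 77 above 0, and 0.29 for the assembly factors of the complexes, with 39 of 48 above 0. It was 0.16 for the cytosolic ribosome (68 of 87), 0.10 for the citrate cycle list (13 of 21) and -0.01 for the regulators of mitochondrial biogenesis (8 of 16). For the 561 other coding genes with transcripts under 1000 bases it was 0.27, with 431 above 0. Proliferation genes lay higher as well, with a median of 0.41 and 22 of 23 above 0, and in the hilum lower, at -1.79 with 0 of 23 above 0. Their hilar sums were 942, 556 and 589 CPM in Ndr (mice 1219, 1220 and 1224), against 955, 608 and 3649 CPM in WT (mice 1221, 1223 and 1225). The hilar value thus leans on 1 culture, WT hilum 1225. The part of the short transcripts and of proliferation in the members' difference was not tested.

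**Figure D5:**
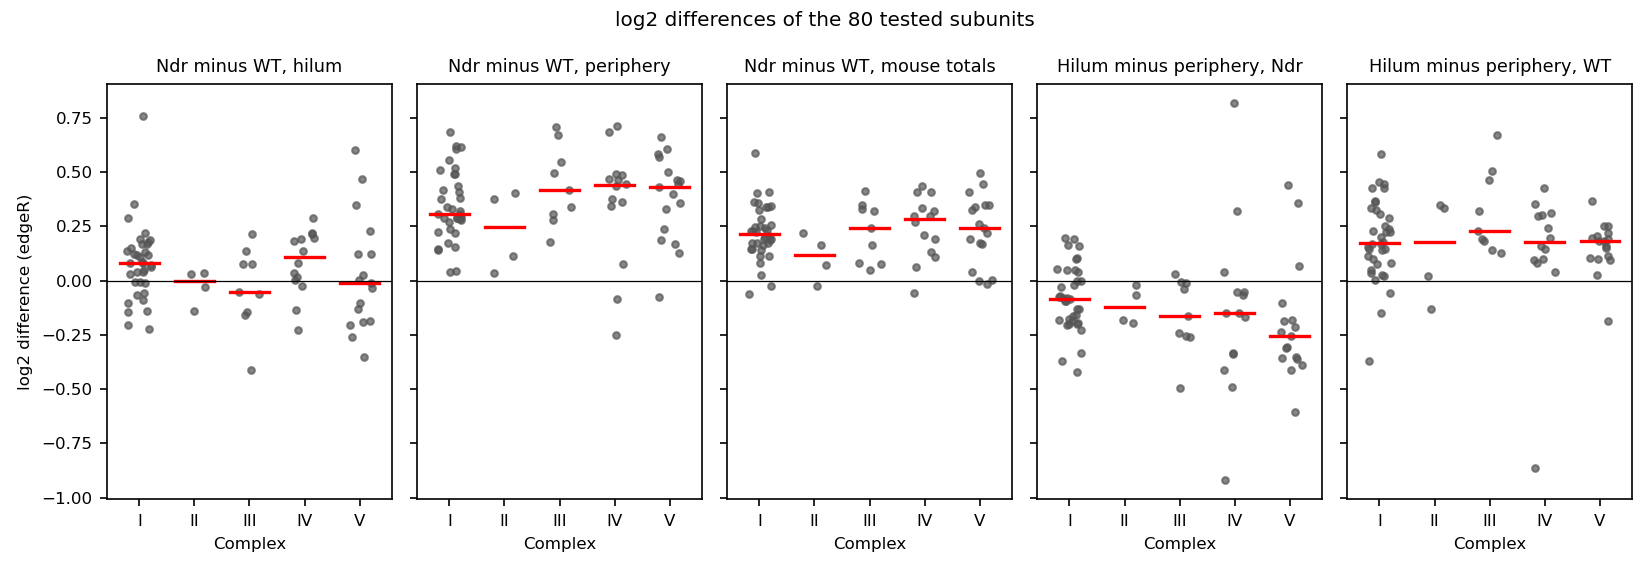
log2 differences from edgeR for the 80 tested subunits, by complex, in 5 comparisons; each point is a gene and the red line the median of its complex. Points lie mostly above 0 for Ndr minus WT in the periphery and for hilum minus periphery in WT, mostly below 0 for hilum minus periphery in Ndr, and on both sides of 0 for Ndr minus WT in the hilum.

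Summing both cultures of a mouse narrowed the spread. In these totals 0 of the 80 members passed the adjusted threshold in edgeR (0% of 15401 genes), and 4 had an unadjusted p under 0.05, against 5.42% of all genes. Ndr was above WT for 74 members, against 49.3% of all genes, with a median log2 difference of 0.22, against -0.00 for all genes. In 8 members all Ndr mice were above all WT mice (5.49% of all genes) and in 0 below (5.78%). The 4 with the smallest p-values were Cox6a1, Ndufb7, an accessory subunit of complex I, Cox4i1 and Ndufs8.

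Cox6a1 had 170.3, 182 and 138 CPM in the totals of Ndr mice 1219, 1220 and 1224, against 116, 124 and 129 CPM in those of WT mice 1221, 1223 and 1225 (log2 difference 0.41, SE 0.14, edgeR adjusted p = 0.869). Cox4i1 had 429.6, 379 and 303 CPM in Ndr mice, against 259.6, 294 and 284 CPM in WT mice (0.41, SE 0.17, edgeR adjusted p = 0.903). Ndufb7 had 56.2, 57.0 and 40.4 CPM in Ndr mice, against 38.2, 38.9 and 38.9 CPM in WT mice (0.41, SE 0.16), and Ndufs8 had 60.6, 65.5 and 48.4 CPM, against 42.9, 45.4 and 47.8 CPM (0.36, SE 0.15). In all of these the totals of mouse 1224 lay closest to WT. With derivation date as a term the members' median was -0.09. That value rests on mouse 1224 against mouse 1225, since only the 21st holds both genotypes. In limma-trend on the authors' normalized table the median was -0.13, so the direction turned under both. From those values limma called 22 of 80 members (27.5%) at an adjusted p of 0.05, 17 lower and 5 higher in Ndr, against 49.7% of all 14624 genes. Cyc1 was at -0.68 and Ndufs1 at -0.30. The table holds whole counts over 1 factor per library, and 19.9% of these counts equal the raw ones, whereas 99.2% equal the output of ComBat-seq run with the derivation day as batch and genotype kept. The Ndr mice were all of different days. The 15th holds WT mice only, and the 17th and 18th hold Ndr mice only, so day and genotype cannot be told apart there. The effect of such an adjustment on these calls was not tested.

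Hilum and periphery were compared within each genotype. In Ndr organoids 0 of 80 members passed the adjusted threshold in edgeR (0% of all genes) and 0 an unadjusted p of 0.05, although 10.3% of all genes did. The hilum was above the periphery for 17 members (48.7% of all genes), and the median log2 difference was -0.15, against -0.01 for all genes. In 0 members were the groups separate, against 7.49% of all genes wholly higher and 7.93% wholly lower in the hilum. Atp5d, the delta subunit of ATP synthase, had the smallest p, with 167, 86.5 and 126 CPM in Ndr hilum, against 154, 225 and 198 CPM in Ndr periphery (log2 difference -0.61, SE 0.28, edgeR adjusted p = 0.490). The next were Cox8a (-0.49), Atp5b (-0.41), Ndufv3, an accessory subunit of complex I (-0.37), and Atp5s (0.36).

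The mice of this genotype did not go one way. The median member's log2(CPM + 1) in hilum minus periphery was 0.73 in mouse 1219, with 79 of 80 higher in the hilum, against -0.94 in mouse 1220, with 2 of 80 higher, and -0.28 in mouse 1224, with 10 of 80. Cox6a1 shows it, with 211 CPM in the hilum against 133 in the periphery for mouse 1219, and 94.8 CPM in the hilum against 252 in the periphery for mouse 1220. Leaving out Ndr periphery 1220 turned the members' median to 0.15, with 60 of 80 above 0. Leaving out Ndr hilum 1219 made it -0.51, with 4 above 0.

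In WT organoids the hilum was above the periphery for 74 of 80 members, against 53.9% of all genes, with a median log2 difference of 0.18, against 0.03. Again 0 members passed the adjusted threshold in edgeR (0% of all genes) and 0 an unadjusted p of 0.05 (0.506% of all genes). In 8 members the hilum was wholly above the periphery (2.94% of all genes) and in 0 wholly below (2.6%). Among the 8 were Uqcr10 (0.46), Ndufs5 (0.45), Ndufa11, an accessory subunit of complex I (0.43), and Atp5g1 (0.36). Sdhb, the iron-sulphur subunit of succinate dehydrogenase, had 82.3, 109.8 and 99.1 CPM in WT hilum, against 77.6, 76.8 and 74.6 CPM in WT periphery, which did not overlap (0.35, SE 0.26). The others with the smallest p-values were Ndufs6 (0.59), Cyc1 (0.67) and Ndufb9 (0.45), which overlapped between regions, and Ndufab1, the mitochondrial acyl carrier protein (0.29). For Ndufab1 a pseudogene row held more counts than the gene.

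Most of the WT difference came from 1 mouse. In mouse 1223 the median member was 0.52 higher in the hilum (77 of 80), in mouse 1225 it was 0.08 higher (48 of 80), and in mouse 1221 it was 0.08 lower in the hilum (-0.08, with 28 of 80 higher). Without WT hilum 1223 the median of the fit was 0.05, with 45 of 80 above 0. Over both genotypes the median was 0.02, with 44 of 80 above 0 (52.2% of all genes), 0 past the adjusted threshold in edgeR (0%) and 0 past an unadjusted p of 0.05 (6.07%). The smallest p-values there were those of Cox7a1 (-0.89, below 5 CPM), Ndufv3 (-0.37), Ndufab1 (0.22), Ndufb9 (0.31), Atp5d (-0.25) and Ndufb2 (0.26).

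Whether the genotype difference itself differed between regions was tested as an interaction, the Ndr minus WT difference in the hilum minus that in the periphery. It was below 0 for all but 7 members, whereas 46.1% of all genes were above 0, and its median was -0.34, against -0.05 for all genes. In edgeR 0 members passed the adjusted threshold (0% of all genes) and 0 an unadjusted p of 0.05 (3%). The largest single values among the 5 smallest p were those of Cyc1 (-0.91, SE 0.54), Ndufs6 (-0.78, SE 0.40) and Atp5d (-0.72, SE 0.40), then Cox5a, a matrix-side subunit of complex IV (-0.63), and Atp5s (0.54), with an adjusted p of 0.994 for each. Without Ndr periphery 1220 the median was -0.06, and without Ndr hilum 1219 it was -0.71.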

How the data were processed

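Total RNA of 12 organoid cultures was sequenced. The authors deposited raw counts per gene, for which the submitters' processing notes name featureCounts and GRCm39, and a table of normalized values (signal) for which the same notes name DESeq2 1.34.0. The aligner, annotation, strand setting and handling of multiply mapping reads are not stated. Library totals were 6708822 to 16030880 counts, and 28444 genes had at least 1 count. No count column belonged to another series.

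Names and types came from GENCODE M21 on GRCm38, used for names and transcript lengths only. It matched 52093 identifiers and left 1607 unnamed. Length is that of the longest principal transcript, with UTRs, because no protein table was used. Pseudogene copies were found with blastn 2.17.0. The tests were robust quasi-likelihood F tests of edgeR 4.0.16 in R 4.3.3, after filterByExpr and TMM scaling, with Benjamini-Hochberg adjustment over all genes: 12 libraries with 1 coefficient per group (15014 genes, 8 residual degrees of freedom), and 6 mouse totals (15401 genes, 4). CPM uses TMM-scaled library sizes, and log2 values have a pseudocount of 1. The fits were also run on simulated counts with independent libraries and the same spread setting for every gene. Those counts lack the shared shifts between libraries seen here, so they cannot show how the fits do on these data. Alternatives used DESeq2 1.42.0, limma 3.58.1, sva 3.50.0 (for what the normalized table holds), other scalings and filters, a date term, a mouse block and left-out libraries. 2 were added after seeing the data: copies summed into their gene, and both highest libraries left out.

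The mouse number pairs a hilar with a peripheral culture, since both were derived from that animal. Their deviations from the group means correlated between -0.402 (mouse 1220) and 0.440 (mouse 1225) over all genes.

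Named subunits are the 5 smallest p-values per comparison at 5 CPM or more, up to 4 with separate groups by size, core subunits, isoform families, the most abundant of each complex and the extremes of spread. Ndufa12, Ndufa6, Ndufb2, Uqcr11, Sdhd, the members described for their copies and the regulators Nrf1, Gabpa, Tfam and Ppargc1a, with Cox7a2l, Ttr and the members named for lacking a motif, fall wholly or partly outside it and were picked once their values were known. The members and lists were chosen with earlier results of these data known. With 3 against 3, an exact two-sided permutation p cannot go below 0.1, and p-values are therefore those of the models.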

Additional observations from a re-analysis of the deposited data

How the results depend on the processing

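No subunit passed an adjusted p of 0.05 in any comparison under edgeR's alternatives, DESeq2 or limma-voom. In limma-trend on the authors' normalized values, Cyc1 alone passed in the hilum (-1.12, adjusted p = 0.0402, 1 member, against 10.5% of all genes) and 22 members passed in the mouse totals. Genes called were 0 in every edgeR comparison as reported. In DESeq2 they were 41 (Ndr minus WT, hilum), 6 (periphery), 72 (regions in Ndr), 3 (regions, both genotypes), 4 (interaction) and 113 (mouse totals), and 0 in WT regions. In limma-trend on the normalized table they were 1615, 140, 43, 10, 6 and 7272 in the same order, with 3 for WT regions. In the mouse totals 5 were called without a filter. Leaving out 1 culture at a time gave 0 to 2 genes in the periphery (2 without Ndr periphery 1219), 0 to 7 for the regions in Ndr (7 without Ndr periphery 1219) and 0 to 4 in the mouse totals (4 without mouse 1219).

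The members' median in the hilum became -0.47 in limma-trend and -0.34 without both highest libraries, and ran from -0.33 to 0.20 with single cultures left out. The other ranges were 0.09 to 0.54 (periphery), -0.51 to 0.15 (regions in Ndr), 0.05 to 0.34 (regions in WT), -0.15 to 0.19 (both genotypes), -0.71 to -0.06 (interaction) and 0.16 to 0.32 (mouse totals). In the mouse totals it was -0.13 in limma-trend and -0.09 with a date term, which leaves mouse 1224 against mouse 1225. Signs turned for Atp5l in the hilum (-0.07 without both highest libraries, -0.06 without Ndr hilum 1219, and up to 0.91 with other cultures left out), for Ndufs8 (-0.04) and Uqcr10 (-0.12) in limma-trend on mouse totals, and for Uqcr10 with a date term (-0.06). The cause was not tested. The mouse block, which uses the pairing, gave medians of -0.19 in Ndr, 0.16 in WT, -0.00 over both and -0.35 for the interaction, and changed no call. RLE or total-count scaling and omission of mitochondrial rows changed no direction of a median.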
